A study of Homo sapiens with 9 samples.

Results

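Kinesins are motor proteins that use ATP to move along microtubules or to shorten them. Some build the mitotic spindle, move chromosomes and complete cell division, and their genes are transcribed mainly in late S, G2 and M phase. Others carry vesicles, organelles, RNA and ciliary components through cells that are not dividing, with light chains and adaptor proteins that link motor to cargo. Members were all protein-coding genes whose symbol is KIF plus a number and letter, or KIFC1 to KIFC3, which gave 41 genes of the 36018 in the count tables. Of these, 12 were taken as mitotic motors and the other 29 formed the comparison class, made up mostly of transport and ciliary motors. A test could be run on 37 of them, all 12 mitotic motors and 25 of the others.

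RNA sequencing was done on HCT-15, an established human colorectal adenocarcinoma line, labelled wild type. The CoCl2-tolerant line (3 libraries) was adapted to stepwise higher amounts of cobalt chloride, a chemical mimic of hypoxia. The low-glucose-tolerant line (3 libraries) was adapted in the same stepwise way to scarce glucose, and untreated HCT-15 cells served as control (3 libraries). All were grown in RPMI1640 medium with serum, and neither the amounts of each agent nor the culture time is stated in the labels. Each tolerance is 1 derived line, so its agent and the other changes of that line in culture cannot be told apart. Whether a group's libraries came from separate cultures is not stated. If they did not, the p-values cover technical spread alone.

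Library totals ran from 25178615 to 27829153 counts in CoCl2-tolerant, from 29971930 to 30115866 in low-glucose-tolerant and from 30075024 to 32674687 in control cells. At this depth 3 counts in a library stood for 0.0882 to 0.120 CPM (CPM, counts divided by the scaled library total). Low-glucose-tolerant replicate 2 differed from its group more than any other library did, and values without it are given where they matter. The 9 measured intestinal markers summed to 0.980 to 1.36 CPM in CoCl2-tolerant, 0.507 to 0.582 CPM in low-glucose-tolerant and 2.94 to 3.28 CPM in control cells, with CDX1 and CDX2 at 0 in every CoCl2-tolerant and control library. GPA33 and LGR5, both in control, were the ones to reach 1 CPM, so the defining markers of the labelled tissue were absent or nearly so. Leukocyte markers (6 genes) summed to 0.361 to 1.33 CPM in CoCl2-tolerant, 0.685 to 1.02 CPM in low-glucose-tolerant and 1.09 to 2.38 CPM in control cells. Neuronal markers (5 genes, nearly all MAP2) summed to 31.5 to 39.0 CPM in CoCl2-tolerant, 26.3 to 44.5 CPM in low-glucose-tolerant and 17.5 to 18.5 CPM in control cells, with ELAVL3 at 0 in every control library. Fibroblast markers (8 genes, nearly all COL1A1 and THY1) summed to 644 to 750.1 CPM in CoCl2-tolerant, 156 to 196 CPM in low-glucose-tolerant and 2491 to 2533 CPM in control cells, with LUM at 0.109 CPM or less in each library. Ribosomal protein genes took 4.29 to 5.35% of counts in CoCl2-tolerant, 7.25 to 10.8% in low-glucose-tolerant and 3.52 to 3.67% in control libraries, and mitochondrially encoded genes took 4.64 to 6.67% in CoCl2-tolerant, 4.74 to 5.196% in low-glucose-tolerant and 8.08 to 9.80% in control libraries. The part of these markers and shares in the kinesin results was not tested.

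The low-glucose-tolerant line had lower RNA of every mitotic kinesin. All 12 fell against control, by 2.53-fold for KIF22 to 25.5-fold for KIF20A, and in each case every low-glucose-tolerant library lay below every control library. The share of all genes without such overlap was not counted, and KIF26A and KIF27, which were not called, did not overlap either. Among all 17902 genes tested, 34.6% were called lower in this comparison (69.2% in either direction; edgeR quasi-likelihood test, adjusted p under 0.05), and 21.0% were lower by at least 2-fold. The median log2 fold change was -3.40 over the 12 mitotic motors and -0.01 over all genes tested. In the CoCl2-tolerant line 5 of the 12 fell (KIF11, KIF14, KIF15, KIF18B and KIF20A) and none rose, where 18.2% of all tested genes were called lower and 17.9% higher (36.1% in either direction). Their median there was -0.27, against 0.01 over all genes, and the largest fall was 1.67-fold. Without control replicate 1 or 3, or without CoCl2-tolerant replicate 1 or 3, 3 of the 12 were called lower there (KIF14, KIF18B and KIF20A). RNA from a mixture of cells cannot tell fewer cells in division apart from less of these RNAs in each cell.

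Summed over the class, mitotic kinesin RNA made up a much smaller part of all kinesin RNA in the low-glucose-tolerant line. On the TPM scale, which divides by gene length and so allows sums across genes, the 12 mitotic motors reached 479.9, 499 and 494 TPM in the CoCl2-tolerant libraries. They reached 80.0, 76.9 and 71.4 TPM in the low-glucose-tolerant libraries and 584, 588 and 567 TPM in the control libraries. The 29 other kinesins summed to 625, 597 and 613 TPM in CoCl2-tolerant libraries, to 463, 567 and 441 TPM in low-glucose-tolerant libraries and to 681, 734 and 668 TPM in control libraries. Mitotic motors thus held 44.5 ± 1.05% of kinesin TPM in CoCl2-tolerant, 13.5 ± 1.43% in low-glucose-tolerant and 45.5 ± 0.925% in control cells (SD, n = 3 each). The share in low-glucose-tolerant cells lay far outside the spread of the other groups. The shares in CoCl2-tolerant and control cells overlapped, at 43.4 to 45.5% and 44.5 to 46.2%.

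**Figure D1:**
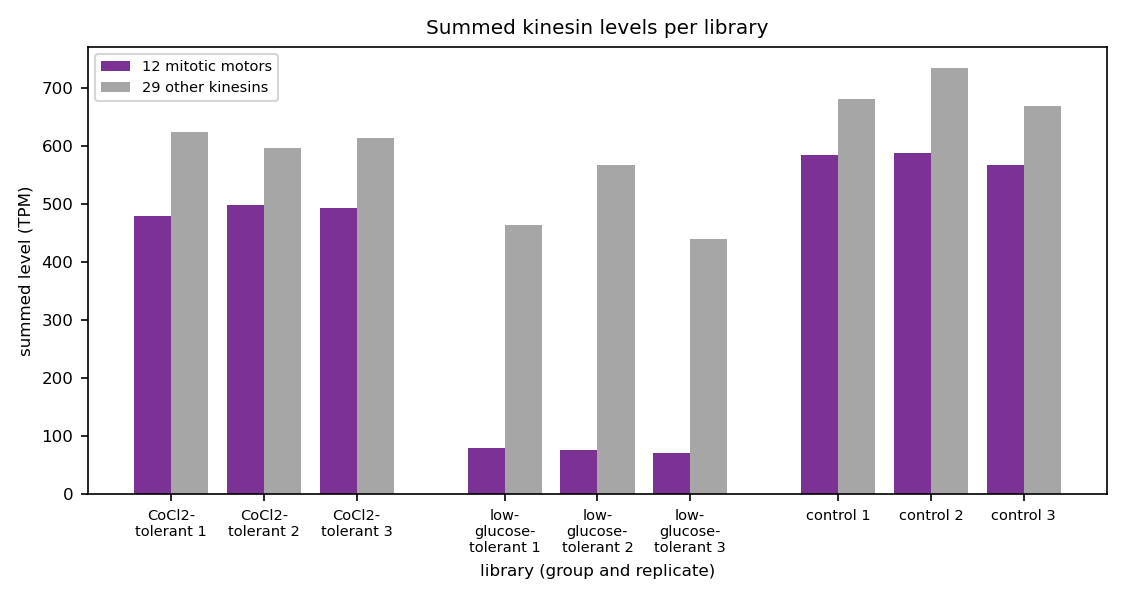
Summed TPM of the 12 mitotic motors (purple) and the 29 other kinesins (grey) in each of the 9 libraries, by group and replicate. The purple bars stand at 71.4 to 80.0 TPM in the low-glucose-tolerant libraries, and at 479.9 TPM or more in all the others.

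The sequence just before the start sites is shown for 7 kinesins, chosen after their values were seen to span large, middle and small changes, because genes transcribed in G2 and M phase often carry an NF-Y box and a cell cycle homology region there. KIF20A, KIF23, KIF11 and KIF4A are mitotic motors that fell 25.5-, 12.2-, 9.11- and 4.57-fold in low-glucose-tolerant cells. KIF2C is a mitotic motor that fell 3.18-fold, KIF5B a transport motor that fell 2.40-fold and KIF3B a ciliary motor that rose. Each run gives the 200 bases upstream of the RefSeq start, 5′ to 3′ on the gene's strand (build GRCh38.p14), with capitals for CCAAT or its reverse complement ATTGG (the NF-Y box) and for TTTGAA or its reverse complement TTCAAA (the cell cycle homology region).
The KIF20A run is chr5:138178912-138179111 on the plus strand, KIF23 is chr15:69414149-69414348 on the plus strand and KIF11 is chr10:92592930-92593129 on the plus strand. KIF4A is chrX:70289904-70290103 on the plus strand and KIF2C is chr1:44739637-44739836 on the plus strand. KIF5B is chr10:32056426-32056625 on the minus strand and KIF3B is chr20:32277451-32277650 on the plus strand.
KIF20A: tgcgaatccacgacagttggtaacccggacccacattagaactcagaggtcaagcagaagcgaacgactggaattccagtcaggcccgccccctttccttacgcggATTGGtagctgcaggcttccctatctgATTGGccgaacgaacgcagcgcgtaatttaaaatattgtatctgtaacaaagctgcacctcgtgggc
KIF23: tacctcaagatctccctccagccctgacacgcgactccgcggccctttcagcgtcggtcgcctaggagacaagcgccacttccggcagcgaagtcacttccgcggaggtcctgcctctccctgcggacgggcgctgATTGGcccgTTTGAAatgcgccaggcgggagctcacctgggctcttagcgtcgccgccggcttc
KIF11: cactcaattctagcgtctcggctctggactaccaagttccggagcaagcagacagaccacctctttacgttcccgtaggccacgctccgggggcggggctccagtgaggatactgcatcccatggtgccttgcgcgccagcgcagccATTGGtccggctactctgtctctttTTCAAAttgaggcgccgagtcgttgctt
KIF4A: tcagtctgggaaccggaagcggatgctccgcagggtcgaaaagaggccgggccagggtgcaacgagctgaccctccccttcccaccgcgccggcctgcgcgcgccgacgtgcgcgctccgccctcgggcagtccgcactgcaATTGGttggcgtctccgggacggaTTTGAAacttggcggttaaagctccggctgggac
KIF2C: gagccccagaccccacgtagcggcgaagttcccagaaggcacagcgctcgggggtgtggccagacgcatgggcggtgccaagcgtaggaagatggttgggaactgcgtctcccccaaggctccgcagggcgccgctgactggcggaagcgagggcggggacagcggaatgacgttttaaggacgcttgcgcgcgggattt
KIF5B: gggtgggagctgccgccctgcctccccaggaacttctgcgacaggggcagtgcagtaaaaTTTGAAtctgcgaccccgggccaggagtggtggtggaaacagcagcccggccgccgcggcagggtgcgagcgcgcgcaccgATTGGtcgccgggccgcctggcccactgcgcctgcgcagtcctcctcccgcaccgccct
KIF3B: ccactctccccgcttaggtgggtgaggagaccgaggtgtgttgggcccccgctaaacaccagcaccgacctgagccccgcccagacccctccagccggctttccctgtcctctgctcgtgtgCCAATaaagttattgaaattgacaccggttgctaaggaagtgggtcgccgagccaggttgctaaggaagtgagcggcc

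KIF23 (-64 and -55), KIF11 (-53 and -28) and KIF4A (-58 and -34) each carry an NF-Y box followed by a cell cycle homology region. KIF20A carries a pair of NF-Y boxes, at -94 and -67, and no TTTGAA in either direction. KIF2C carries neither motif. KIF3B carries an NF-Y box at -78, and KIF5B has that box at -59 with TTTGAA lying farther upstream, at -140. Positions are those of the motif's first base, with -1 just before the start. Runs were placed by RefSeq starts, which can differ from the GENCODE gene bounds given below. The KIF20A run lies inside those bounds, so its matches hold for the RefSeq start alone.

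Windows of 300 bases (250 before to 50 after each start) were found in RefSeq for all 12 mitotic motors (13 windows) and for 21 of the 29 others (29 windows). TTTGAA on either strand stood in 9 of 13 mitotic windows (69.2%), in 2 of 29 other kinesin windows (6.90%, KIF4B and KIF5B) and in 15.2% of the 35116 windows of all genes. CCAAT stood in 10 of 13 mitotic windows (76.9%), 10 of 29 others (34.5%) and 34.6% of all. Both together were found in 8 of 13, 2 of 29 and 5.90% of all windows. GGCGGGAA, a strong E2F site, was in no kinesin window and in 3.16% of all. Of all windows, 19816 belong to protein-coding genes in the count tables. There the shares were 11.6% for TTTGAA, 34.4% for CCAAT, 4.56% for both together and 4.26% for GGCGGGAA. No motif shared a base with another in a kinesin window. The mitotic motors without TTTGAA are KIF20A, KIF22 and KIF2C, and they take in the largest and the 2 smallest falls of the class in low-glucose-tolerant cells. A match describes the letters only, and other spellings of these motifs were not searched.

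**Figure D2:**
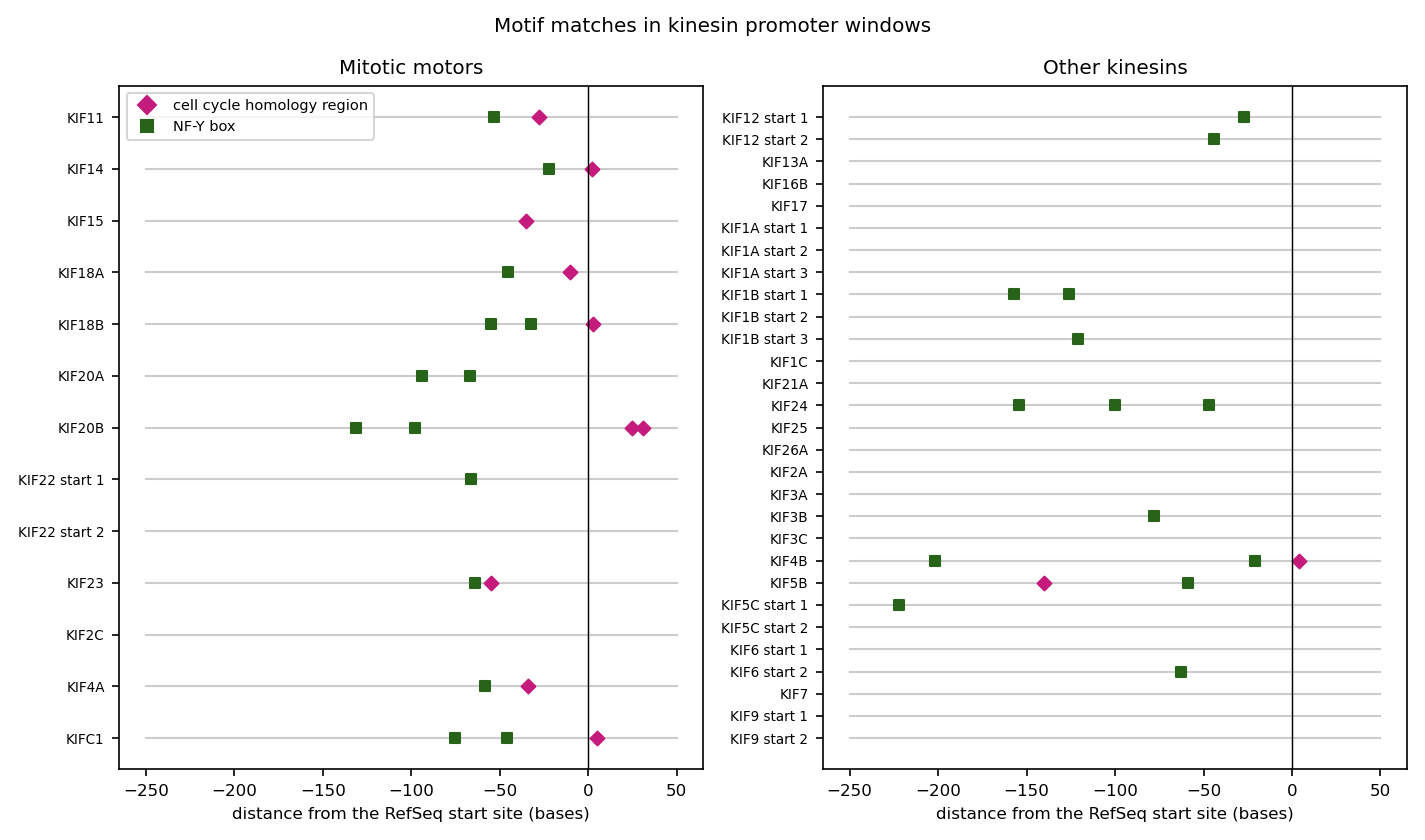
Position of each motif match in the RefSeq windows of mitotic motors (left) and other kinesins (right), as distance in bases from the start site. Diamonds mark the cell cycle homology region and squares the NF-Y box, and diamonds appear in 9 of 13 windows on the left and 2 of 29 on the right.

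The motors of the central spindle and of cytokinesis fell by 4.57- to 25.5-fold in low-glucose-tolerant cells. KIF20A (ENSG00000112984, chromosome 5 from 138178719 to 138187715, plus strand) carries the chromosomal passenger complex to the spindle midzone. It had 68.7, 68.2 and 64.2 CPM in CoCl2-tolerant libraries, 3.30, 4.04 and 3.18 CPM in low-glucose-tolerant libraries, and 90.2, 85.4 and 92.8 CPM in control libraries. The 3 groups did not overlap, and the low-glucose-tolerant libraries were lowest. KIF20A fell in low-glucose-tolerant cells (log2 fold change -4.67 ± 0.13, adjusted p = 5.56e-12) and, less, in CoCl2-tolerant cells (log2 fold change -0.42 ± 0.11, adjusted p = 0.00761).

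KIF23 (ENSG00000137807, chromosome 15 from 69414246 to 69448427, plus strand) is the motor of centralspindlin, which bundles midzone microtubules. It had 107, 114 and 113 CPM in CoCl2-tolerant, 12.4, 10.3 and 9.81 CPM in low-glucose-tolerant and 135, 129 and 133 CPM in control libraries. Its low-glucose-tolerant level was the lowest and did not overlap the others (log2 fold change -3.61 ± 0.12, adjusted p = 1.62e-11). The CoCl2-tolerant libraries also lay below all control libraries, but the difference missed the threshold (log2 fold change -0.25 ± 0.11, adjusted p = 0.0795), and passed it when those 2 groups were fitted alone (adjusted p = 0.00898). KIF14, which brings citron kinase to the midbody, had 22.8, 31.8 and 29.3 CPM in CoCl2-tolerant, 3.91, 4.25 and 2.42 CPM in low-glucose-tolerant and 48.9, 44.2 and 47.1 CPM in control cells. It fell in both lines, with no overlap, and its fall was the largest of the class in CoCl2-tolerant cells (log2 fold change -0.74 ± 0.16, adjusted p = 0.00286). In low-glucose-tolerant cells the fall was 13.2-fold (adjusted p = 6.61e-10).

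KIF20B, a motor needed to finish abscission, had 35.2, 59.7 and 54.7 CPM in CoCl2-tolerant cells, 5.00, 3.73 and 3.55 CPM in low-glucose-tolerant cells and 62.2, 53.9 and 62.5 CPM in control. It fell in low-glucose-tolerant cells (log2 fold change -3.86 ± 0.20, adjusted p = 9.85e-10), and CoCl2-tolerant and control libraries overlapped (adjusted p = 0.266). KIF4A, a chromokinesin that also limits midzone length with PRC1, had 40.8, 43.2 and 38.8 CPM in CoCl2-tolerant, 8.80, 8.67 and 9.48 CPM in low-glucose-tolerant and 43.0, 38.2 and 42.1 CPM in control cells. Its CoCl2-tolerant and control levels overlapped, with means of 40.9 ± 2.19 and 41.1 ± 2.55 CPM (SD, n = 3 each, adjusted p = 0.976). Its fall in low-glucose-tolerant cells was 4.57-fold (adjusted p = 7.93e-10). KIF4B, a nearly identical copy, was below the filter, so reads of KIF4A could be shared with it and its values are uncertain.

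The spindle assembly motors fell by 7.76-fold or more in low-glucose-tolerant cells. KIF11 (ENSG00000138160, chromosome 10 from 92593286 to 92655395, plus strand), which slides antiparallel microtubules and pushes the poles apart, had 58.8, 76.8 and 72.1 CPM in CoCl2-tolerant, 11.7, 8.94 and 9.26 CPM in low-glucose-tolerant and 93.9, 86.8 and 92.0 CPM in control libraries. The 3 groups stood apart, in that order from middle to lowest to highest. It fell in low-glucose-tolerant cells (log2 fold change -3.19 ± 0.14, adjusted p = 2.08e-10) and in CoCl2-tolerant cells (log2 fold change -0.39 ± 0.13, adjusted p = 0.0263). KIF15, which can keep a spindle bipolar beside KIF11, had 11.9, 13.3 and 13.0 CPM in CoCl2-tolerant, 1.63, 1.20 and 1.23 CPM in low-glucose-tolerant and 18.3, 15.3 and 17.2 CPM in control cells. It fell in both lines (log2 fold change -3.64 ± 0.16, adjusted p = 1.85e-10 in low-glucose-tolerant cells, log2 fold change -0.41 ± 0.13, adjusted p = 0.0235 in CoCl2-tolerant cells). Both CoCl2-tolerant calls are close to the threshold: KIF11 lost its call without any 1 control library or without CoCl2-tolerant replicate 1 or 3 (adjusted p 0.0568 to 0.103), and KIF15 without control replicate 1 or 3 or CoCl2-tolerant replicate 1 or 3 (0.0626 to 0.115).

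KIFC1, a minus-end-directed motor that focuses spindle poles and clusters extra centrosomes, had 58.1, 48.9 and 47.4 CPM in CoCl2-tolerant cells, 7.75, 6.30 and 8.79 CPM in low-glucose-tolerant cells and 59.0, 58.0 and 60.2 CPM in control. CoCl2-tolerant replicate 1 reached the control range and the other CoCl2-tolerant libraries lay below it (adjusted p = 0.231). In low-glucose-tolerant cells all libraries were far lower (log2 fold change -2.96 ± 0.14, adjusted p = 3.67e-10). A share of 12.7% of its exon bases overlaps a gene on the opposite strand, and the labels do not say whether counting used strand.

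Motors that act on chromosomes and microtubule ends fell by 2.53- to 12.8-fold in low-glucose-tolerant cells. KIF18B, which shortens astral microtubules, had 76.8, 68.1 and 66.4 CPM in CoCl2-tolerant, 8.05, 8.36 and 7.24 CPM in low-glucose-tolerant and 99.6, 100.2 and 103 CPM in control libraries. It fell in both lines without overlap (log2 fold change -3.68 ± 0.12, adjusted p = 1.34e-11 in low-glucose-tolerant cells, log2 fold change -0.52 ± 0.10, adjusted p = 0.00148 in CoCl2-tolerant cells). KIF18A, which damps the movements of aligned chromosomes, had 22.6, 29.7 and 27.3 CPM in CoCl2-tolerant, 8.09, 5.69 and 5.79 CPM in low-glucose-tolerant and 33.9, 31.7 and 31.4 CPM in control cells. The low-glucose-tolerant fall was 4.95-fold (adjusted p = 1.02e-08), and the lower CoCl2-tolerant level did not pass (adjusted p = 0.131), although it did with those 2 groups alone (adjusted p = 0.0366).

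KIF2C (ENSG00000142945, chromosome 1 from 44739818 to 44767767, plus strand), which removes tubulin from microtubule ends at kinetochores, had 62.4, 58.6 and 57.3 CPM in CoCl2-tolerant, 17.4, 16.5 and 19.1 CPM in low-glucose-tolerant and 57.9, 56.0 and 54.6 CPM in control libraries. It was the 1 mitotic motor with a fitted CoCl2-tolerant level above control, within the spread of the libraries (log2 fold change 0.08 ± 0.10, adjusted p = 0.563), and it fell in low-glucose-tolerant cells (log2 fold change -1.67 ± 0.11, adjusted p = 6.44e-09). KIF22, a chromokinesin that pushes chromosome arms outward, had 66.1, 57.5 and 58.4 CPM in CoCl2-tolerant, 27.2, 26.0 and 28.9 CPM in low-glucose-tolerant and 68.7, 71.4 and 67.8 CPM in control cells. Its fall in low-glucose-tolerant cells was the smallest of the 12 (log2 fold change -1.34 ± 0.11, adjusted p = 5.46e-08), and the CoCl2-tolerant level, below every control library, missed the threshold (adjusted p = 0.159). A gene on the opposite strand covers 13.0% of its exon bases.

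Genes of some chromosomes moved together in low-glucose-tolerant cells, by medians over the tested genes above a floor on mean CPM. The median log2 fold change was -0.46 on chromosome 5 (KIF20A), -0.47 on chromosome 15 (KIF23) and 0.66 on chromosome 16 (KIF22). It was -0.17 to 0.31 on the others apart from 0.72 on chromosome 7. The part of these shifts in the values of single motors was not tested. The mitotic motors on the other chromosomes fell by 3.18- to 14.5-fold. The class also differs in transcript features, with a median exon length of 4662 bases and 44.3% GC, against 6756 bases and 51.8% in the other tested kinesins and 4245 bases and 48.5% in all tested genes, and with a trend on both removed all 12 were still called lower in low-glucose-tolerant cells. Without low-glucose-tolerant replicate 2, and without each other library in turn, the count remained 12 of 12.

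**Figure D3:**
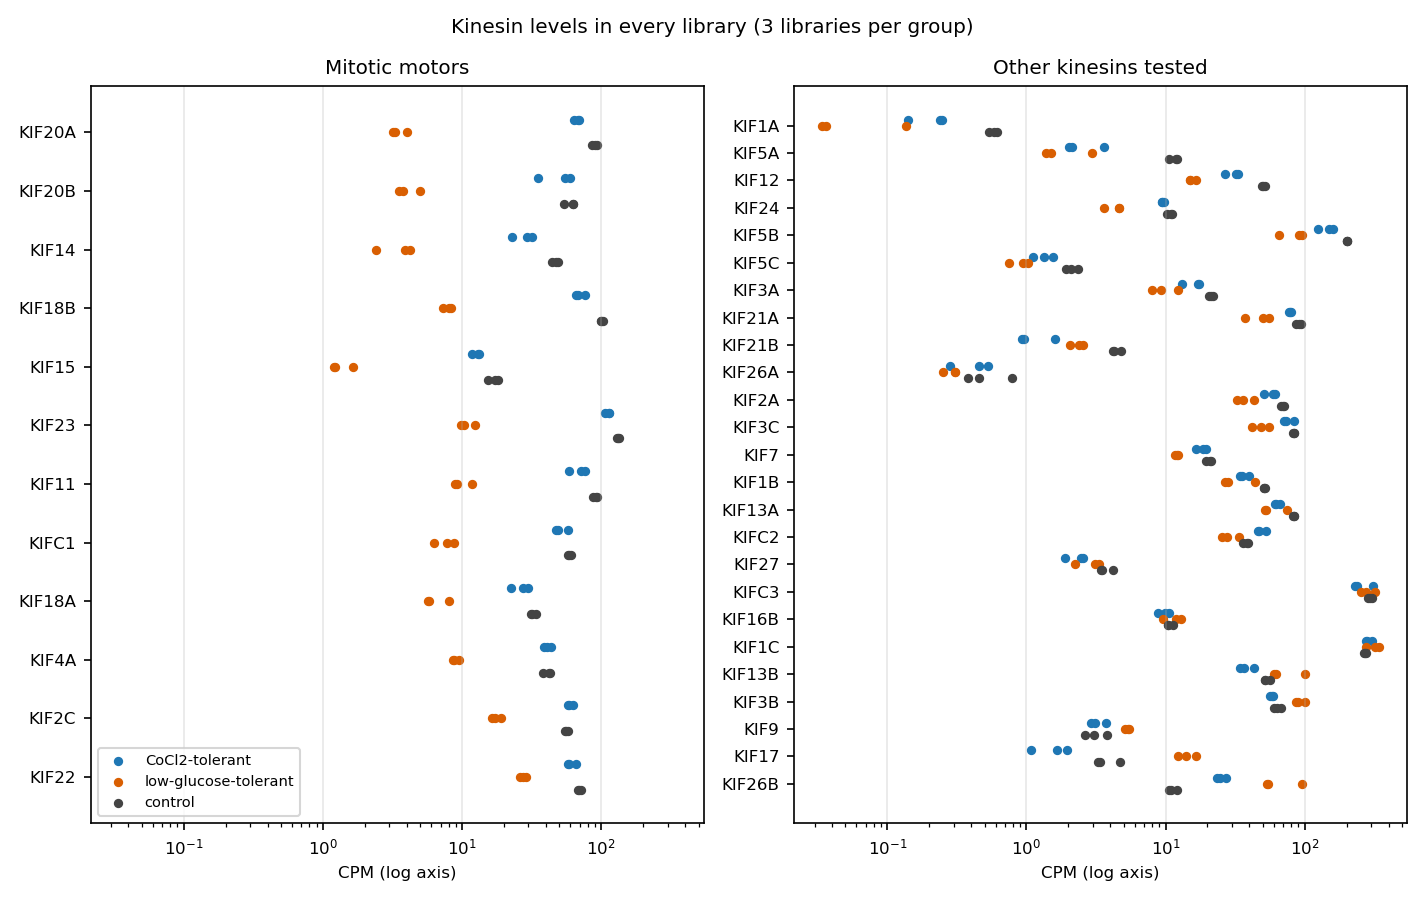
CPM of each tested kinesin in every library on a log axis, mitotic motors on the left and others on the right, with CoCl2-tolerant libraries in blue, low-glucose-tolerant in orange and control in dark grey. Orange points stand left of all others for each of the 12 mitotic motors, from 1.20 CPM in KIF15 to 28.9 CPM in KIF22, while several other kinesins show orange points to the right.

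The other 25 tested kinesins moved in both directions. In CoCl2-tolerant cells 2 rose (KIF26B and KIFC2), 12 fell and 11 did not pass, with a median log2 fold change of -0.34, where 17.9% of all genes were called higher and 18.2% lower. In low-glucose-tolerant cells 5 rose (KIF3B, KIF9, KIF13B, KIF17 and KIF26B), 15 fell and 5 did not pass, with a median of -0.77, where 34.6% of all genes were called higher and 34.6% lower. Falls of at least 2-fold numbered 7 of 25 in low-glucose-tolerant cells, a share near the 21.0% of all genes that fell as far, and 4 in CoCl2-tolerant cells, where 6.49% of all genes fell as far. Without any 1 control library, or without CoCl2-tolerant replicate 3, 7 of the other kinesins were called lower in CoCl2-tolerant cells in place of 12, and without CoCl2-tolerant replicate 1, 6 were. The comparisons share the same control libraries, so the values of the 2 lines are set side by side only.

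The kinesin-1 heavy chains, which carry vesicles and mitochondria with kinesin light chains, fell in both lines. KIF5B (ENSG00000170759, chromosome 10 from 32009010 to 32056431, minus strand), the form found in most tissues, had 124, 159 and 148 CPM in CoCl2-tolerant, 96.0, 90.3 and 64.9 CPM in low-glucose-tolerant and 202, 201 and 201 CPM in control libraries. No group overlapped another, and low-glucose-tolerant cells were lowest (log2 fold change -1.26 ± 0.14, adjusted p = 2.01e-06; log2 fold change -0.48 ± 0.14, adjusted p = 0.0147 in CoCl2-tolerant cells). The CoCl2-tolerant call of KIF5B was lost without CoCl2-tolerant replicate 1 (adjusted p = 0.0592). KIF5A, best known from neurons, had 3.61, 2.03 and 2.12 CPM in CoCl2-tolerant cells, 1.495, 2.98 and 1.38 CPM in low-glucose-tolerant cells and 10.6, 12.02 and 11.9 CPM in control. The tolerant lines overlapped each other and lay below control in every library (log2 fold change -2.17 ± 0.25, adjusted p = 1.74e-05 in CoCl2-tolerant cells; log2 fold change -2.56 ± 0.26, adjusted p = 7.61e-07 in low-glucose-tolerant cells). KIF5C, also mainly neuronal, had 1.12, 1.54 and 1.34 CPM in CoCl2-tolerant, 0.748, 1.03 and 0.941 CPM in low-glucose-tolerant and 2.34, 1.94 and 2.10 CPM in control cells. It was lower than control in all 6 tolerant libraries (adjusted p = 0.0241 in CoCl2-tolerant cells and 0.000181 in low-glucose-tolerant cells). Its CoCl2-tolerant call ended without control replicate 1 or 3, or without CoCl2-tolerant replicate 1 or 3 (adjusted p 0.0671 to 0.101).

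The kinesin-2 motors, which drive outward transport in cilia, split. KIF3A, which pairs with KIF3B or KIF3C, had 13.2, 17.3 and 17.0 CPM in CoCl2-tolerant, 12.2, 9.25 and 7.997 CPM in low-glucose-tolerant and 21.1, 21.9 and 20.5 CPM in control libraries. It fell in low-glucose-tolerant cells (log2 fold change -1.11 ± 0.16, adjusted p = 2.03e-05) and narrowly in CoCl2-tolerant cells (log2 fold change -0.42 ± 0.15, adjusted p = 0.0461), a call that 8 alternatives ended, with library totals (adjusted p = 0.0655) and leaving out any 1 control or CoCl2-tolerant library among them (adjusted p 0.0523 to 0.161). Its partner KIF3B had 59.4, 57.9 and 56.5 CPM in CoCl2-tolerant cells, 89.0, 101 and 86.2 CPM in low-glucose-tolerant cells and 63.7, 67.5 and 60.1 CPM in control. KIF3B rose in low-glucose-tolerant cells, above all other libraries (log2 fold change 0.53 ± 0.10, adjusted p = 0.000367). KIF3C, the alternative partner, fell there (log2 fold change -0.77 ± 0.12, adjusted p = 4.28e-05) and did not pass in CoCl2-tolerant cells (adjusted p = 0.423).

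KIF17 (ENSG00000117245, chromosome 1 from 20664014 to 20718017, minus strand), a homodimeric kinesin-2 of cilia and dendrites, had 1.97, 1.09 and 1.66 CPM in CoCl2-tolerant, 12.3, 16.6 and 14.1 CPM in low-glucose-tolerant and 3.38, 4.67 and 3.27 CPM in control libraries. The 3 groups did not overlap, and it moved in opposite directions in the 2 lines. It fell in CoCl2-tolerant cells (log2 fold change -1.28 ± 0.23, adjusted p = 0.000646) and rose in low-glucose-tolerant cells (log2 fold change 1.92 ± 0.19, adjusted p = 6.34e-07), a 9.18-fold lower level in CoCl2-tolerant than in low-glucose-tolerant cells.

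The kinesin-3 motors, fast carriers of vesicles and endosomes, had mixed values. KIF1A, the carrier of synaptic vesicle precursors, was near the limit of detection, with 0.241, 0.140 and 0.247 CPM in CoCl2-tolerant, 0.0340, 0.137 and 0.0362 CPM in low-glucose-tolerant and 0.617, 0.588 and 0.540 CPM in control libraries. It fell in both lines (log2 fold change -1.46 ± 0.41, adjusted p = 0.0123 in CoCl2-tolerant cells; log2 fold change -2.99 ± 0.50, adjusted p = 9.36e-05 in low-glucose-tolerant cells) on few reads, with 1, 4 and 1 counts in the low-glucose-tolerant libraries, and the CoCl2-tolerant call was lost without CoCl2-tolerant replicate 2 (adjusted p = 0.0606). Without low-glucose-tolerant replicate 2 the low-glucose-tolerant log2 fold change was -3.89, and that of the direct comparison 2.43. KIF1B, a carrier of mitochondria and vesicles, ranged over 34.4 to 39.5 CPM in CoCl2-tolerant, 26.6 to 43.7 CPM in low-glucose-tolerant and 50.9 to 51.9 CPM in control cells and fell in both lines (adjusted p = 0.0255 in CoCl2-tolerant and 0.00225 in low-glucose-tolerant cells). KIF13A, a recycling endosome motor, likewise fell in both, at 60.9 to 66.2 CPM in CoCl2-tolerant, 51.5 to 75.04 CPM in low-glucose-tolerant and 82.2 to 84.1 CPM in control cells (adjusted p = 0.0292 in CoCl2-tolerant and 0.00521 in low-glucose-tolerant cells). The CoCl2-tolerant calls of both ended without any 1 control library or without CoCl2-tolerant replicate 1 or 3 (adjusted p 0.0633 to 0.0926 for KIF1B and 0.0666 to 0.100 for KIF13A).

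KIF1C, a carrier of dense-core vesicles and integrins, did not pass in either line, with 306, 278 and 279.6 CPM in CoCl2-tolerant, 277, 343 and 322 CPM in low-glucose-tolerant and 269, 268 and 275 CPM in control libraries (adjusted p = 0.538 in CoCl2-tolerant and 0.0845 in low-glucose-tolerant cells). KIF13B, which carries phosphoinositide vesicles and binds DLG1, had 43.0, 36.6 and 34.3 CPM in CoCl2-tolerant cells, 61.9, 100.1 and 60.5 CPM in low-glucose-tolerant cells and 51.7, 56.2 and 52.1 CPM in control. It fell in CoCl2-tolerant cells (log2 fold change -0.49 ± 0.17, adjusted p = 0.0357) and rose in low-glucose-tolerant cells (log2 fold change 0.47 ± 0.17, adjusted p = 0.0212), where replicate 2 was highest. The rise ended without that library (log2 fold change 0.21, adjusted p = 0.102), without control replicate 1 or 3 (adjusted p = 0.0578 and 0.0585), with library totals and with a stricter filter. The fall ended without any 1 control library or without CoCl2-tolerant replicate 2 or 3 (adjusted p 0.0681 to 0.132). KIF16B, an early endosome motor, ranged over 8.86 to 10.5 CPM in CoCl2-tolerant, 9.63 to 12.8 CPM in low-glucose-tolerant and 10.3 to 11.4 CPM in control cells, with overlap between the groups (adjusted p = 0.48 in CoCl2-tolerant and 0.52 in low-glucose-tolerant cells).

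The largest rise of the family was in KIF26B (ENSG00000162849, chromosome 1 from 245154985 to 245709431, plus strand), an atypical kinesin that binds microtubules without ATP-driven movement. It had 27.2, 24.6 and 23.4 CPM in CoCl2-tolerant, 53.4, 96.2 and 54.3 CPM in low-glucose-tolerant and 10.6, 12.2 and 10.9 CPM in control libraries. The groups did not overlap and both lines were above control. It rose 2.23-fold in CoCl2-tolerant cells (log2 fold change 1.16 ± 0.20, adjusted p = 0.000433) and 6.06-fold in low-glucose-tolerant cells (log2 fold change 2.60 ± 0.20, adjusted p = 4.46e-08). Low-glucose-tolerant replicate 2 was highest, and without it the log2 fold change was 2.27 (adjusted p = 1.89e-09). Its relative KIF26A stayed at or below 0.794 CPM in every library and did not pass in either line (adjusted p = 0.499 in CoCl2-tolerant and 0.0573 in low-glucose-tolerant cells).

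The KIF21 motors, which restrain microtubule growth, both fell in low-glucose-tolerant cells. KIF21B had 0.923, 1.61 and 0.953 CPM in CoCl2-tolerant, 2.38, 2.57 and 2.06 CPM in low-glucose-tolerant and 4.16, 4.82 and 4.26 CPM in control libraries. It was lowest in CoCl2-tolerant cells (log2 fold change -1.91 ± 0.22, adjusted p = 1.24e-05; log2 fold change -0.92 ± 0.20, adjusted p = 0.00081 in low-glucose-tolerant cells). KIF21A had 77.3 to 80.1 CPM in CoCl2-tolerant, 37.2 to 55.6 CPM in low-glucose-tolerant and 87.1 to 94.4 CPM in control cells. It fell in low-glucose-tolerant cells (log2 fold change -0.94 ± 0.13, adjusted p = 1.77e-05) but did not pass in CoCl2-tolerant cells (adjusted p = 0.22).

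Kinesins of the centriole and cilium gave both signs. KIF24, which restrains cilium formation at the mother centriole, had 9.67, 9.38 and 9.36 CPM in CoCl2-tolerant, 4.59, 4.63 and 3.62 CPM in low-glucose-tolerant and 10.3, 11.1 and 10.9 CPM in control libraries. It fell in low-glucose-tolerant cells by 2.51-fold (adjusted p = 6.81e-07) and did not pass in CoCl2-tolerant cells (adjusted p = 0.277). KIF7, a regulator of Hedgehog signalling at the cilium tip, fell in low-glucose-tolerant cells (11.8 to 12.2 CPM, against 19.4 to 21.2 CPM in control, adjusted p = 2.68e-05). Its relative KIF27 fell in CoCl2-tolerant cells (1.89 to 2.54 CPM, against 3.44 to 4.17 CPM in control, adjusted p = 0.0139), a call lost without control replicate 2 (adjusted p = 0.0705) or CoCl2-tolerant replicate 1 (adjusted p = 0.0546). KIF9, a motor of motile cilia, rose in low-glucose-tolerant cells (5.14 to 5.46 CPM, against 2.63 to 3.82 CPM in control, adjusted p = 0.0012). KIF7 (adjusted p = 0.249) and KIF9 (adjusted p = 0.926) did not pass in CoCl2-tolerant cells, nor KIF27 in low-glucose-tolerant cells (adjusted p = 0.102). Genes on the opposite strand cover 11.8% of the exon bases of KIF7, 13.1% of KIF27 and 17.9% of KIF9.

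KIF12, a kinesin of kidney and bile duct epithelium, had 33.4, 26.7 and 32.3 CPM in CoCl2-tolerant, 15.0, 14.9 and 16.5 CPM in low-glucose-tolerant and 49.1, 51.6 and 50.1 CPM in control libraries. The groups stood apart and it fell in both lines (log2 fold change -0.71 ± 0.11, adjusted p = 0.000274 in CoCl2-tolerant cells; log2 fold change -1.70 ± 0.12, adjusted p = 1.36e-08 in low-glucose-tolerant cells). KIF2A, a microtubule depolymerase related to KIF2C, fell in low-glucose-tolerant cells (32.5 to 43.3 CPM, against 67.2 to 70.6 CPM in control, adjusted p = 1.61e-05), and -0.27 ± 0.12 on the log2 scale in CoCl2-tolerant cells missed the threshold (adjusted p = 0.0938). It shares 8.97% of its exon bases with IPO11 on the same strand.

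The other minus-end-directed motors changed by less than 2-fold. KIFC2, best known from neurons, had 52.5, 46.0 and 46.6 CPM in CoCl2-tolerant, 25.5, 27.7 and 33.7 CPM in low-glucose-tolerant and 36.3, 38.9 and 38.4 CPM in control libraries. It rose in CoCl2-tolerant cells (log2 fold change 0.35 ± 0.12, adjusted p = 0.0332) and fell in low-glucose-tolerant cells (log2 fold change -0.39 ± 0.12, adjusted p = 0.0108). Leaving out any 1 control library, or CoCl2-tolerant replicate 1 or 3, ended the call of the rise (adjusted p 0.0653 to 0.130), and 17.8% of its exon bases overlap a gene on the opposite strand. KIFC3, found at adherens junctions, had 311, 229 and 239 CPM in CoCl2-tolerant, 253, 277 and 318 CPM in low-glucose-tolerant and 286, 303 and 293 CPM in control libraries. These ranges overlapped, and it passed in neither line (adjusted p = 0.3 in CoCl2-tolerant cells and 0.705 in low-glucose-tolerant cells).

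**Figure D4:**
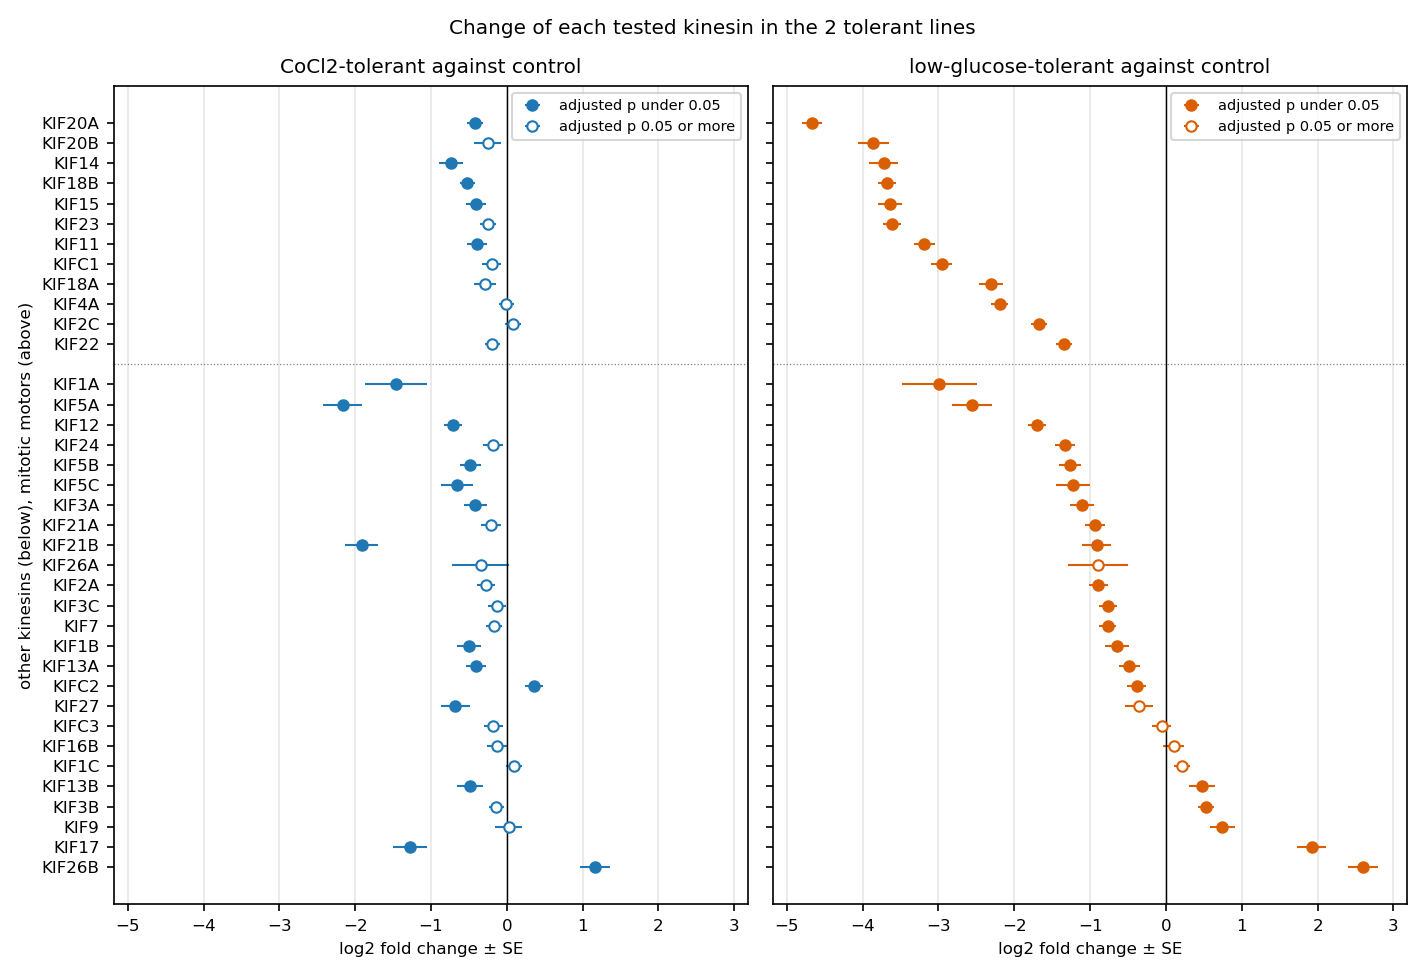
Log2 fold change ± SE of each tested kinesin in CoCl2-tolerant (left) and low-glucose-tolerant cells (right) against control, mitotic motors above the dotted line and others below. Filled points have an adjusted p under 0.05. All 12 mitotic points on the right are filled and lie between -4.67 and -1.34, while the others run from -2.99 to 2.60.

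By call, 5 mitotic motors were lower in both lines and the other 7 in low-glucose-tolerant cells alone, where 11.5% of all tested genes were called lower in both. Of the other kinesins, 9 were lower in both lines (KIF1A, KIF1B, KIF3A, KIF5A, KIF5B, KIF5C, KIF12, KIF13A and KIF21B) and KIF26B was higher in both, where 11.3% of all genes were called higher in both. KIF13B and KIF17 fell in CoCl2-tolerant and rose in low-glucose-tolerant cells, and KIFC2 did the opposite. The share of all genes called in opposite directions was not counted, so these calls are not read as a trait of the family. KIF16B, KIF1C, KIF26A and KIFC3 passed in neither line.

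The direct comparison set the tolerant lines against each other. All 12 mitotic motors were higher in CoCl2-tolerant than in low-glucose-tolerant cells, by 2.22-fold for KIF22 to 19.1-fold for KIF20A, where 31.9% of all genes were called higher and 32.0% lower (63.9% in either direction). Their median log2 fold change was 2.89, against 0.01 over all genes. KIF20A differed by 4.25 ± 0.13 (adjusted p = 2.19e-11), KIF20B by 3.60 ± 0.20 (adjusted p = 2.56e-09) and KIF22 by 1.15 ± 0.11 (adjusted p = 3.51e-07). Of the other 25 kinesins, 11 were higher, 6 lower and 8 did not pass, with a median of 0.39. That median was 0.17 to 0.58 over the alternatives, at 0.17 without CoCl2-tolerant replicate 1 and, without low-glucose-tolerant replicates 1, 2 and 3 in turn, at 0.22, 0.58 and 0.19. Of these 25, KIF1A and KIF24 were called higher by at least 2-fold, and KIF17 and KIF26B lower by as much. Of all genes, 18.2% were called higher and 13.2% lower by at least 2-fold. KIF12 (0.99 ± 0.12) and KIF21B (-0.998 ± 0.23) lay at that limit. The call of KIF1A (1.53 ± 0.61, adjusted p = 0.0403) ended in 10 alternatives and that of KIF5C (0.56 ± 0.23, adjusted p = 0.0471) in 12.

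The order of levels within the family, compared per length on the TPM scale, differed between lines. In CoCl2-tolerant cells KIF1C (119.9 ± 5.31 TPM), KIFC3 (96.6 ± 15.4 TPM) and KIF5B (87.6 ± 11.5 TPM) led, followed by KIF23 (60.6 ± 2.88 TPM) and KIF20A (60.6 ± 0.957 TPM), whose levels could not be told apart (SD, n = 3 throughout). In low-glucose-tolerant cells KIF1C (114 ± 16.6 TPM) and KIFC3 (91.3 ± 7.59 TPM) led, ahead of KIF3B (47.2 ± 7.22 TPM) and KIF5B (44.7 ± 11.1 TPM), which overlapped. The highest mitotic motor there was KIF22 in rank 9 (19.7 ± 0.330 TPM). In control KIF5B (119 ± 4.35 TPM), KIF1C (109.8 ± 3.14 TPM) and KIFC3 (107 ± 6.82 TPM) were highest, with KIF20A (78.6 ± 0.338 TPM) in rank 4.

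The members below the filter were KIF4B, KIF6, KIF19 and KIF25. KIF6, linked to cilia, had at most 16 counts in a library, KIF4B at most 8, KIF25 at most 6 and KIF19, a ciliary motor, at most 1. These levels allow no comparison. CENPE, a kinesin of the kinetochore whose symbol lies outside the rule, had 19.1, 28.2 and 25.6 CPM in CoCl2-tolerant, 1.597, 1.23 and 0.688 CPM in low-glucose-tolerant and 32.6, 29.7 and 32.7 CPM in control libraries. It fell in low-glucose-tolerant cells (log2 fold change -4.74 ± 0.23, adjusted p = 4.01e-10) and missed the threshold in CoCl2-tolerant cells (adjusted p = 0.0975).

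All 23 listed partners and regulators of the mitotic motors fell in low-glucose-tolerant cells (median log2 fold change -2.53), where 34.6% of all genes were called lower. In CoCl2-tolerant cells 9 fell, none rose and 14 did not pass (median -0.34), where 18.2% of all genes were called lower and 17.9% higher. MKI67, which coats mitotic chromosomes, had 221 ± 24.6 CPM in CoCl2-tolerant, 24.0 ± 6.17 CPM in low-glucose-tolerant and 433 ± 23.5 CPM in control cells and fell in both lines (adjusted p = 0.000216 in CoCl2-tolerant and 1.04e-10 in low-glucose-tolerant cells). DLGAP5, a spindle assembly factor, fell by 3.99 on the log2 scale in low-glucose-tolerant cells and HMMR, a spindle protein, by 3.59. CIT, the citron kinase that KIF14 recruits, fell by 0.61 in CoCl2-tolerant cells (adjusted p = 0.00411), and ECT2, the cytokinetic exchange factor that centralspindlin activates, by 0.61 (adjusted p = 0.00451). PRC1, the partner of KIF4A, shares 57.6% of its exon bases with another gene on its strand, and its low counts (2.02 ± 0.181 CPM in control) are uncertain.

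Among 16 cell cycle transcription factors, 2 rose and 4 fell in CoCl2-tolerant cells (median log2 fold change -0.08), and 3 rose and 10 fell in low-glucose-tolerant cells (median -0.49). The CoCl2-tolerant counts are near the background of 17.9% of all genes higher and 18.2% lower, and in low-glucose-tolerant cells 34.6% of all genes were called in each direction. MYBL2, the activator in the complex that binds cell cycle homology regions, had 71.5 ± 4.59 CPM in CoCl2-tolerant, 19.0 ± 1.496 CPM in low-glucose-tolerant and 157 ± 11.3 CPM in control cells and fell in both lines (log2 fold change -1.14 ± 0.11 in CoCl2-tolerant and -3.05 ± 0.12 in low-glucose-tolerant cells). E2F8 and E2F2 also fell in both lines, at -0.98 ± 0.14 and -1.30 ± 0.17 in CoCl2-tolerant and -4.65 ± 0.19 and -3.51 ± 0.21 in low-glucose-tolerant cells. E2F7, of the same family, rose in both, with 98.8 ± 12.5 CPM in CoCl2-tolerant, 202 ± 50.02 CPM in low-glucose-tolerant and 51.8 ± 2.15 CPM in control cells (adjusted p = 0.000413 in CoCl2-tolerant and 7.77e-08 in low-glucose-tolerant cells).

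Tubulins, the track of both classes, fell in 12 of 14 cases in low-glucose-tolerant cells and 1 rose (median -1.15), while 5 rose and 2 fell in CoCl2-tolerant cells (median 0.08). The background was 34.6% of all genes in each direction in low-glucose-tolerant cells, and 17.9% higher and 18.2% lower in CoCl2-tolerant cells. TUBA1A had 822 ± 45.1 CPM in CoCl2-tolerant, 147 ± 15.2 CPM in low-glucose-tolerant and 615 ± 36.0 CPM in control cells, a rise in CoCl2-tolerant cells (adjusted p = 0.00779) and a fall in low-glucose-tolerant cells (adjusted p = 1.26e-09). TUBB4A fell in both lines (log2 fold change -0.94 ± 0.15 in CoCl2-tolerant and -2.48 ± 0.16 in low-glucose-tolerant cells), and TUBE1, the epsilon-tubulin of centrioles, rose in both (0.62 ± 0.14 in CoCl2-tolerant and 1.38 ± 0.13 in low-glucose-tolerant cells). Tubulin paralogs are alike in sequence, so reads could be divided between them.

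Of 20 cargo adaptors and light chains, 2 rose and 2 fell in CoCl2-tolerant cells (median 0.09), and 7 rose and 7 fell in low-glucose-tolerant cells (median -0.01). These counts are at or below the background of 17.9% of all genes higher and 18.2% lower in CoCl2-tolerant cells and 34.6% in each direction in low-glucose-tolerant cells. In low-glucose-tolerant cells KTN1, the kinesin anchor of the endoplasmic reticulum, fell (log2 fold change -1.35 ± 0.13, adjusted p = 3.37e-07). PLEKHM2, which links lysosomes to the kinesin light chains, rose (log2 fold change 0.77 ± 0.11, adjusted p = 2.3e-05).

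**Figure D5:**
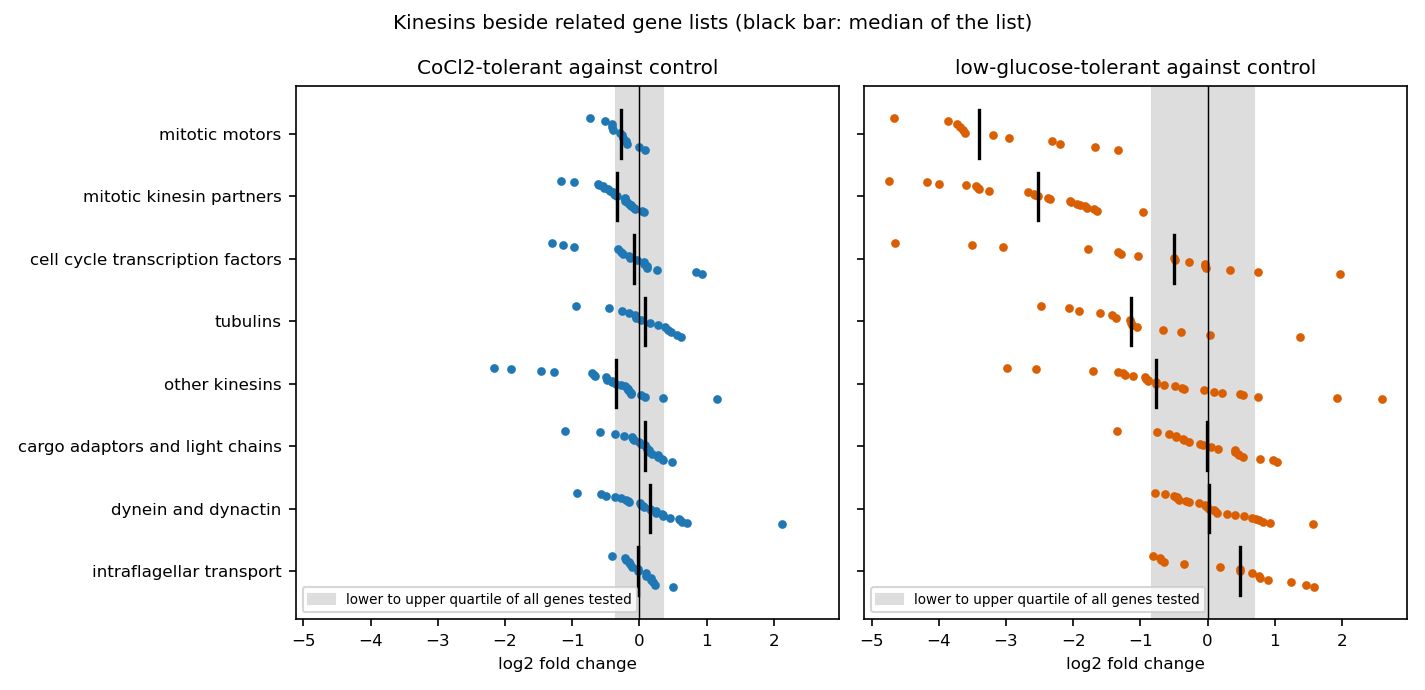
Log2 fold change of each tested gene in the kinesin classes and the related lists, for CoCl2-tolerant (left) and low-glucose-tolerant cells (right) against control. Black bars are list medians and the grey band runs from the lower to the upper quartile of all tested genes. On the right the medians of the mitotic motors (-3.40) and their partners (-2.53) lie left of the band, and those of the cargo adaptors (-0.01) and of dynein and dynactin (0.01) lie in it.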

How the data were processed

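RNA sequencing libraries of HCT-15 cells and 2 derived lines were analysed, 3 per group. The values are raw read counts per gene, deposited by the authors, and hold whole numbers that sum to different library totals. The submitters' processing notes name featureCounts, build GRCh38 and DESeq2. Not given in the sources used here are versions, the aligner, the annotation release and whether counting was stranded. Per the labels' protocols, mRNA was isolated, sheared, copied to cDNA and amplified by PCR, and no molecular identifiers are mentioned.

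Identifiers were named from a symbol table (35938 of 36018) and GENCODE release 29 (76 more), which also gave gene positions, exon lengths and overlaps. Genes passing filterByExpr by group (17902) were scaled by trimmed means of M values (factors 0.922 to 1.04) and fitted in edgeR 4.0.16 (R 4.3.3). The quasi-likelihood F test had 1 mean per group over all 9 libraries, without covariates (common coefficient of variation 12.6%). Benjamini-Hochberg adjustment covered all genes tested, and calls needed an adjusted p under 0.05. Standard errors are the log2 fold change over the square root of F. CPM use the scaled library total. TPM were computed here from counts and GENCODE exon lengths. Promoters came from RefSeq (GRCh38.p14). Further steps ran in Python 3.11.15 with pandas 2.3.3, numpy 2.4.6 and matplotlib 3.10.9.

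The named genes were all members. Those with at least a 2-fold change and an adjusted p under 0.05 in any comparison, and the mitotic motors, have their value in every library, and the rest were added after their values were seen or are given by range. Related lists were counted, with up to 4 of their largest called changes named at 1 CPM or more. A gene that this rule takes is not reported here. Members and lists were chosen with earlier results of these data known. CENPE was named whatever its value. KIF28P, a pseudogene, was left out, and KIF2B and the brefeldin A line of the study were not analysed here.

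The alternatives tried were library totals, size factors or the Wald test of DESeq2 1.42.0, no filter, at least 5 CPM in 3 libraries, only the groups compared, a replicate block, a length and GC trend removed, other class members and each library left out. With 1 library left out, its group's spread was taken from the pooled fit. Replicate pairs differed beyond counting error, with ratios of chi-squared to degrees of freedom from 7.56 to 29.2 in CoCl2-tolerant, 24.6 to 66.7 in low-glucose-tolerant and 2.18 to 6.20 in control pairs, so none was taken as a duplicate.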

Additional observations from a re-analysis of the deposited data

Results flagged for a closer look

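KIF13B, KIF17 and KIFC2 were called in opposite directions in the tolerant lines against the same control libraries. A call in the direct test was also required for this list, so it adds no separate support. The share of all genes called in opposite directions was not counted. KIF17 fell in CoCl2-tolerant cells and rose in low-glucose-tolerant cells, a difference of -3.20 ± 0.22 on the log2 scale (adjusted p = 1.56e-08) between CoCl2-tolerant and low-glucose-tolerant cells. It was lower in 3 of 3 CoCl2-tolerant libraries than in any low-glucose-tolerant library. KIF13B differed in the same direction by -0.97 ± 0.17 (adjusted p = 0.000193), and by -0.70 without low-glucose-tolerant replicate 2. KIFC2 was higher in CoCl2-tolerant than in low-glucose-tolerant cells by 0.74 ± 0.12 (adjusted p = 0.000101), with no overlap between their libraries. Against control, the fall and the rise of KIF13B each lost the call in 5 of 17 alternatives. The KIFC2 rise lost it in 6 of 17, while the calls of KIF17 held in all 17.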

How the results depend on the processing

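All 12 mitotic motors were called lower in low-glucose-tolerant cells and higher in the direct comparison under every alternative run, as were 13 of 13 when KIF2A was counted with them (KIF4B, moved too, stayed below the filter). In CoCl2-tolerant cells 5 mitotic motors were called lower, and 8 when a trend on transcript length and GC content was removed (KIF18A, KIF22 and KIFC1 were added). The count was 3 to 6 with 1 library left out and 7 with only the 2 groups compared fitted. The other kinesins called lower there ranged from 6 to 12 with 1 library left out. They numbered 14 with only the 2 groups compared fitted. Those called higher there ranged from 1 to 2 with 1 library left out, with 1 under the replicate block and 3 with the trend removed. In low-glucose-tolerant cells 5 others were called higher, and 3 to 7 over all alternatives. The count was 4 to 6 with 1 library left out and 3 under the stricter filter, where fewer genes were tested. Sign changes were found in values that did not pass: with the trend removed KIF16B (0.0044) and KIFC3 (0.048) in CoCl2-tolerant cells and KIFC3 in the direct comparison (0.168). With 1 library left out they were KIF9 (-0.095 to 0.179), KIF4A (-0.058 to 0.034) and KIF26A (-0.553 to 0.027) in CoCl2-tolerant cells, KIFC3 in low-glucose-tolerant cells (-0.141 to 0.027) and KIF13A in the direct comparison (-0.028 to 0.267). KIF1C passed in both lines with the trend removed (0.27 and 0.31). Library totals in place of scaled ones shifted the median of all genes to -0.11 in low-glucose-tolerant cells, and removing the trend shifted it to 0.12. The replicate numbers did not pair the libraries (same-number correlations -0.260 to 0.124, other numbers -0.242 to 0.205). The causes of these shifts were not tested.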

Other observations

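Dynein and dynactin form the minus-end-directed counterpart of the transport kinesins. Of 25 tested members, 8 rose and 3 fell in CoCl2-tolerant cells (median log2 fold change 0.16), and 7 rose and 7 fell in low-glucose-tolerant cells (median 0.01). Of all genes 17.9% were called higher and 18.2% lower in CoCl2-tolerant cells, and 34.6% in each direction in low-glucose-tolerant cells, so the low-glucose-tolerant counts are below the background. DCTN3 and DCTN2, subunits of the dynactin shoulder, rose in both lines: DCTN2 had 193 ± 16.6 CPM in CoCl2-tolerant, 259 ± 30.9 CPM in low-glucose-tolerant and 152 ± 2.17 CPM in control cells (SD, n = 3 each), with an adjusted p of 0.0252 in CoCl2-tolerant and 2.46e-05 in low-glucose-tolerant cells (edgeR). DYNLT3, a dynein light chain, rose in CoCl2-tolerant cells (0.63 ± 0.20) and fell in low-glucose-tolerant cells (-0.79 ± 0.20). HOOK1, an endosomal adaptor of dynein, fell in CoCl2-tolerant cells (-0.92 ± 0.18, adjusted p = 0.00147). DCTN5 had 125 ± 19.7 CPM in low-glucose-tolerant cells and 42.3 ± 1.02 CPM in control (adjusted p = 3.71e-08). It shares 26.0% of its exon bases with another gene on its strand, so its counts are uncertain. It lies on chromosome 16, whose tested genes above the CPM floor had a median of 0.66 in low-glucose-tolerant cells.

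Intraflagellar transport genes, the cargo trains of kinesin-2, rose in 9 of 15 cases and fell in 5 in low-glucose-tolerant cells (median 0.49), with 1 rise and 1 fall in CoCl2-tolerant cells (median -0.02). The count of falls in low-glucose-tolerant cells is near the 34.6% of all genes called lower, and 34.6% were called higher. In CoCl2-tolerant cells 17.9% of all genes were called higher and 18.2% lower, so both counts there are below the background. IFT22 had 23.9 ± 2.39 CPM in CoCl2-tolerant, 63.7 ± 7.29 CPM in low-glucose-tolerant and 21.3 ± 0.509 CPM in control cells (adjusted p = 3.92e-08 in low-glucose-tolerant cells). It lies on chromosome 7, where the tested genes above the CPM floor had a median of 0.72 in low-glucose-tolerant cells. IFT43 and IFT46 rose by 1.47 ± 0.16 and 1.24 ± 0.12 on the log2 scale in low-glucose-tolerant cells, and IFT122 fell in both lines (-0.41 ± 0.12 in CoCl2-tolerant and -0.70 ± 0.12 in low-glucose-tolerant cells).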
